A study of Mus musculus with 10 samples.

Results

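The 10 genes described here encode the machinery that makes microRNAs and puts them to use: Drosha, Dgcr8, Xpo5, Dicer1, Tarbp2, Prkra and the Argonautes Ago1, Ago2, Ago3 and Ago4. They were taken by symbol from a table of 25905 genes measured in mouse retina, and all 10 were present, all annotated as protein-coding. All 10 also passed the expression filter, a mean of at least 1 CPM (counts adjusted for library size and not for length) over the libraries, which left 14210 genes to be tested.

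The samples were 10 retinas, namely the right and the left retina of 5 mice numbered 61, 64, 65, 66 and 68. The mice were wild type, of the strain C57BL/6J, and were 34 days old after birth. In each mouse a goggle with a −20 dioptre lens, which places the image behind the retina and drives the eye towards myopia, covered 1 eye for 10 days from postnatal day 24, and the other eye went without a lens. Side and mouse number stand in the labels, but the side of the lens does not. The groups are therefore 5 right and 5 left retinas. Which of them wore the lens, and whether a side holds both treated and untreated eyes, the labels do not tell. The questions open to these data are how the machinery differs between sides, between fellow eyes whichever the side, and between mice.

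A microRNA gene is transcribed as a long primary transcript with a hairpin. In the nucleus the Microprocessor, made of the RNase III enzyme Drosha and its RNA-binding partner Dgcr8, cuts the hairpin out, and exportin 5, encoded by Xpo5, carries it to the cytoplasm. There Dicer1, with the RNA-binding proteins encoded by Tarbp2 and Prkra, trims it to a short duplex, and an Argonaute protein keeps a single strand as a guide to messenger RNAs, which are then repressed. In mice, rods from which Dicer1 is removed degenerate, and microRNAs of retinal neurons are known for their fast turnover.

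Some of these genes carry hairpins of their own, and these show what the machinery acts on. Dgcr8 messenger RNA is known to be cut by Drosha at hairpins near its start, which lowers Dgcr8 in turn. RefSeq (GRCm38.p6) places 2 microRNA hairpins inside Dgcr8 on its own strand: Gm24572, the precursor of miR-3618, of 88 bases in the 5′ UTR, and Mir1306, of 79 bases at chr16:18284239-18284317, minus strand, in coding sequence. Xpo5 holds a hairpin as well, Mir693, of 89 bases at chr17:46231531-46231619, plus strand, in an intron. The coding and the intronic hairpin are shown 5′ to 3′ to make the substrate visible, with the annotated mature strands of both arms in capitals.
Mir1306: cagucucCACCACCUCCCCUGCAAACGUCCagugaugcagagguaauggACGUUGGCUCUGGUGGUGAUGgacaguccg
Mir693: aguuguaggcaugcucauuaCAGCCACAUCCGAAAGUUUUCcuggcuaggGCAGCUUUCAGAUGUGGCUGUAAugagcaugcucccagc
Folded in silico, Mir1306 formed 23 base pairs with a predicted free energy of −29.8 kcal per mol, and Mir693 formed 38 base pairs at −59.2 kcal per mol. The 3 hairpins were not analysed here as genes of their own, and reads from the exonic pair could be counted to Dgcr8. GENCODE M21 also annotates a microRNA gene of 140 bases within Drosha on its strand, Gm47288, which was not analysed here.

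Libraries were sequenced from total RNA after removal of ribosomal RNA. The genes of the table summed to 321661 to 346696 CPM per library, and by the step between low values 1 CPM stood for 89.2 to 113.4 counts. The 14 retina markers, such as the photoreceptor genes Sag and Gnat1, all passed the expression filter. Markers of neighbouring tissue were uneven. The 9 lens markers summed to 25.9 to 849 CPM in right and 8.05 to 48.1 CPM in left retinas, highest in the right retina of mouse 65. The 6 skeletal muscle markers summed to 1.55 to 3.48 CPM in right and 1.63 to 58.2 CPM in left retinas, highest in the left retina of mouse 68. The 6 pigment epithelium markers summed to 10.4 to 16.5 and 8.36 to 17.0 CPM in right and left retinas. The 5 fibroblast markers summed to 8.97 to 15.4 and 6.88 to 9.94 CPM, and the 7 microglia and blood markers to 18.6 to 37.8 and 16.9 to 37.3 CPM, in the same order. No listed marker was at 0 in every library. All 8 tested lens markers were higher on the right (median difference 1.39 on the log2(CPM + 1) scale). Of these, 4 had an unadjusted p under 0.05 by limma (2.34% of all tested genes did) and 0 passed after adjustment. All 4 tested pigment epithelium and all 4 tested fibroblast markers were also higher (medians 0.23 and 0.30). All 3 tested muscle and all 3 tested microglia and blood markers were lower (medians −0.68 and −0.07). The part of these tissues in the values below, and in differences between sides, was not tested.

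Every step of the pathway was detected in every library. Levels of different genes can be set against each other only per length, and per kilobase of annotated exon (GENCODE M21, union of all exons) Ago3 stood first with 3.97 ± 0.211 CPM per kilobase (SD, n = 10 libraries of 5 mice, as for the values that follow). Close to it were Dicer1 with 3.78 ± 0.0976, Ago2 with 3.74 ± 0.242 and Dgcr8 with 3.53 ± 0.149 CPM per kilobase. Xpo5 with 2.94 ± 0.137, Drosha with 2.91 ± 0.168 and Ago1 with 2.55 ± 0.128 CPM per kilobase formed the middle of the order. Ago4 with 1.88 ± 0.143, Prkra with 1.69 ± 0.176 and Tarbp2 with 1.37 ± 0.226 CPM per kilobase stood last. Over the 14006 tested genes with a length the median was 1.96 CPM per kilobase, so 7 of the 10 genes lay above the middle of the retina's transcripts, and the highest, Ago3, was above 75.3% of them.

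Neighbours in this order were often within each other's spread. Dicer1 was above Ago2 in 5 of 10 libraries and Xpo5 above Drosha in 5 of 10, so neither pair has an order on this length. Ago3 exceeded Dicer1 in 8, Ago2 exceeded Dgcr8 in 7, and Drosha exceeded Ago1 and Ago4 exceeded Prkra in 9 of 10 libraries, all with overlapping ranges. The ranges of the 10 libraries did not overlap between Dgcr8 and Xpo5 or between Ago1 and Ago4. Prkra was above Tarbp2 in all 10 libraries, although the ranges across libraries overlapped.

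The order also turned on the length used. Per kilobase of the longest annotated transcript, 38 of the 45 pairs of genes kept their order. Dicer1 with 6.43 ± 0.166 and Dgcr8 with 6.30 ± 0.266 CPM per kilobase now came first, with Ago3 at 4.22 ± 0.224. Ago2, at 3.80 ± 0.247, was below both Dicer1 and Dgcr8 on this length. The exons of Dicer1 cover 16750 bases in union and 9851 bases in its longest transcript, and those of Dgcr8 cover 7696 and 4320 bases. On this length Tarbp2, at 2.28 ± 0.377 CPM per kilobase, was above Prkra at 2.13 ± 0.221 and Ago4 at 2.002 ± 0.152. The lower place of Ago4, Prkra and Tarbp2 as a group was the same on both lengths.

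**Figure D1:**
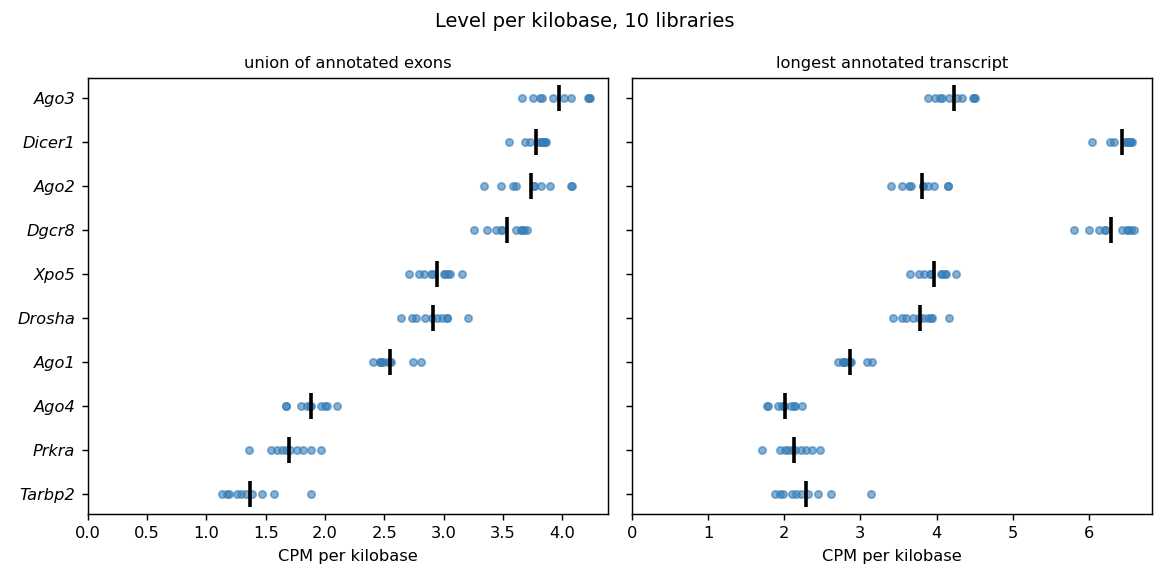
Level of each gene in CPM per kilobase (x axis, linear) in 10 libraries (points) with their mean (bar), per length of the union of annotated exons on the left and of the longest annotated transcript on the right. Ago4, Prkra and Tarbp2 are lowest on both lengths, while Dicer1 and Dgcr8 move from 3.78 and 3.53 on the first to 6.43 and 6.30 on the second.

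The nuclear pair came first in the pathway. Drosha (chromosome 15, bases 12824815 to 12935291, plus strand, GRCm38) measured 15.7, 18.0, 16.9, 17.2 and 18.0 CPM in the right retinas of mice 61, 64, 65, 66 and 68, against 16.4, 16.2, 17.7, 19.0 and 17.5 CPM in their left retinas. Dgcr8 (chromosome 16, bases 18253948 to 18289246, minus strand) measured 26.9, 26.5, 28.1, 26.8 and 25.1 CPM in the right retinas of these mice in the same order, against 28.5, 28.3, 27.8, 25.9 and 28.2 CPM in the left. Both sides overlapped for both genes. The right retina had more Drosha in mice 64 and 68, with a right-minus-left difference of −0.02 on the log2(CPM + 1) scale (SE 0.05, 95% interval −0.13 to 0.09). Dgcr8 was also higher on the right in 2 mice, with a difference of −0.05 (SE 0.04, 95% interval −0.15 to 0.04). The ratio of Drosha to Dgcr8 per kilobase of exon union was 0.836 ± 0.0716 in right and 0.815 ± 0.085 in left retinas (SD, n = 5 each). Its range over all libraries was 0.743 to 0.953. This ratio depends on the length used: per kilobase of the longest transcript Drosha was at 3.78 and Dgcr8 at 6.30 CPM, a lower ratio. The last 825 bases of Dgcr8 overlap Trmt2a on the opposite strand, which measured 12.3 CPM on average. On the same strand GENCODE M21 has a further protein-coding gene, Gm49776, which overlaps Dgcr8 over 4374 bases and was not analysed here, and reads of that stretch could belong to either. The kit keeps strand, but whether the counting used it is not given in the sources used here.

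Xpo5, the export receptor (chromosome 17, bases 46202782 to 46243598, plus strand), measured 19.95, 19.5, 21.6, 20.7 and 20.9 CPM in right retinas, against 21.0, 18.6, 19.1, 20.6 and 19.9 CPM in left retinas, mice in the same order. The right retina was higher in 4 of 5 mice, all but mouse 61, but the sides overlapped and the difference of 0.05 (SE 0.04, 95% interval −0.05 to 0.15) was within the spread. Without mouse 65 it was 0.02. Of all tested genes, 16.2% were higher on the right in at least 4 of 5 mice.

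Dicer1 was the steadiest of the 10 genes. Its transcript (chromosome 12, bases 104687742 to 104751952, minus strand) measured 64.6, 61.8, 64.1, 63.8 and 64.3 CPM in right retinas, against 64.4, 64.7, 62.4, 59.5 and 63.9 CPM in left retinas, a coefficient of variation of 2.58% over the 10 libraries where counting alone gives 1.28%. The difference between sides was 0.02 (SE 0.03, 95% interval −0.06 to 0.09), and Dicer1 was higher on the right in 4 of 5 mice, all but mouse 64. The interval of Dicer1 lay within 0.1 log2 units of 0 in either direction.

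The double-stranded RNA-binding partners of Dicer were less abundant per kilobase and more variable. Tarbp2, whose product helps Dicer position and hand on the duplex (chromosome 15, bases 102518192 to 102523676, plus strand), measured 7.14, 5.32, 6.68, 5.73 and 5.88 CPM in right retinas, against 8.56, 6.30, 5.41, 5.14 and 6.08 CPM in left retinas. Prkra, which encodes the activator of the kinase PKR and a second Dicer partner (chromosome 2, bases 76629898 to 76648015, minus strand), measured 3.82, 3.58, 3.68, 3.39 and 3.13 CPM in right retinas, against 3.99, 3.31, 3.24, 2.76 and 3.45 CPM in left retinas. For both genes the 2 retinas of mouse 61 were above the other 8 libraries, and the sides overlapped. The differences between sides were −0.02 for Tarbp2 (SE 0.08, 95% interval −0.19 to 0.16) and 0.06 for Prkra (SE 0.07, 95% interval −0.10 to 0.21). Tarbp2 was the most variable of the 10 genes, with a coefficient of variation of 16.6% against a counting error of 4.11%. For Prkra these were 10.4% and 5.51%, at 285 to 385 implied counts per library. Per kilobase of exon union Dicer1 was 2.04 to 3.16 times Tarbp2 over the libraries, averaging 2.84 ± 0.297 in right and 2.79 ± 0.449 in left retinas.

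**Figure D2:**
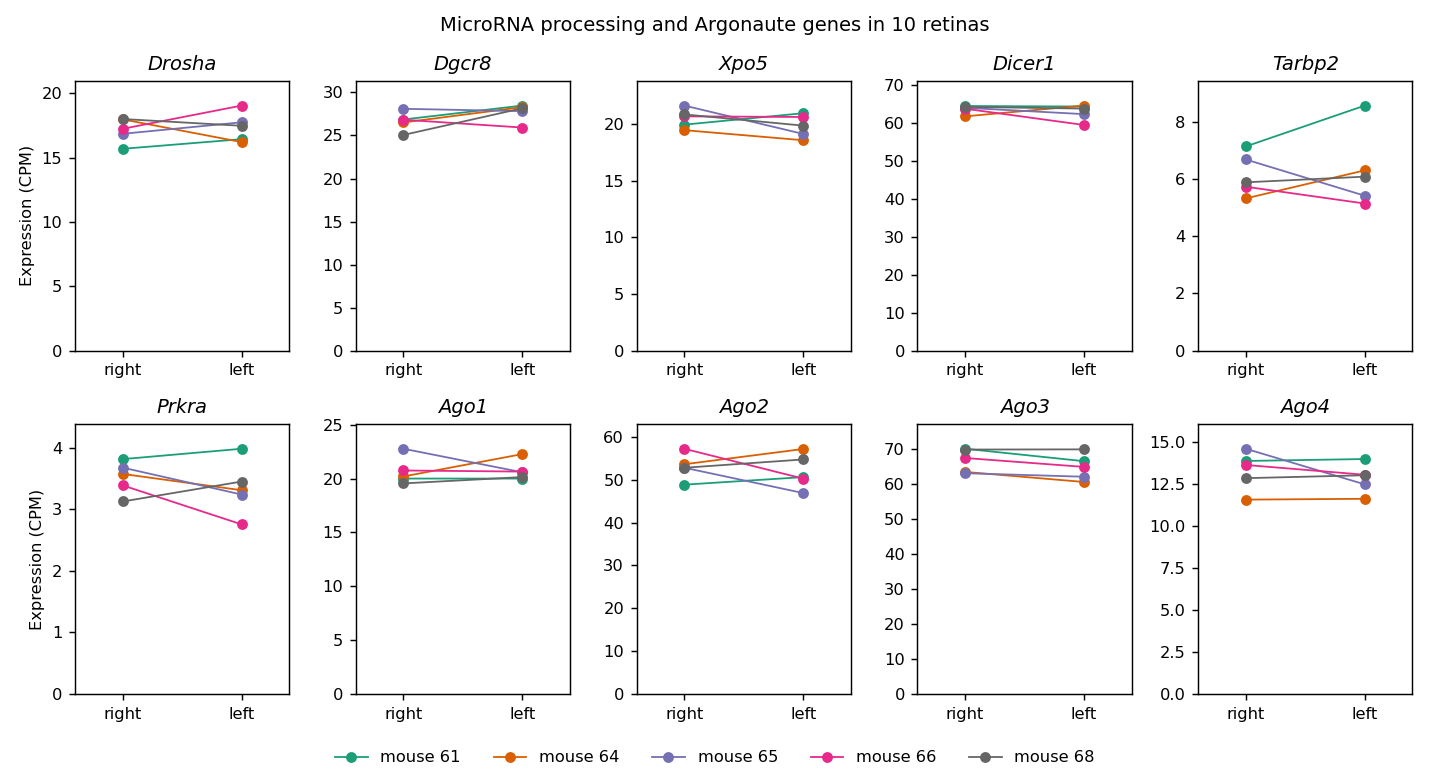
Expression in CPM (y axis, linear from 0, a separate scale for each gene) in the right and the left retina of 5 mice, with a line joining the fellow eyes. The sides overlap for all 10 genes, and mouse 61 lies above the others for Tarbp2 and Prkra in both eyes.

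The 4 Argonautes are close relatives that all bind microRNAs, and Ago2 is the member best known for cutting a matched target. Ago3, Ago1 and Ago4 lie in a row on the minus strand of chromosome 4 (bases 126331704 to 126429556, 126435012 to 126468583 and 126489541 to 126533472), separated by 5455 and 20957 bases, while Ago2 stands alone on chromosome 15 (bases 73095844 to 73184935, minus strand). Of the 3 neighbours on chromosome 4, Ago3 was at 3.66 to 4.23, Ago1 at 2.41 to 2.81 and Ago4 at 1.67 to 2.10 CPM per kilobase of exon union over the libraries, ranges that do not overlap. Per kilobase, Ago3 made up 32.9 ± 1.75% of the Argonaute sum in right and 32.6 ± 1.43% in left retinas (SD, n = 5 each). Ago2 made up 30.8 ± 1.55% in right and 30.8 ± 1.71% in left retinas. The share of Ago1 was 20.7 ± 1.097% in right and 21.3 ± 1.16% in left retinas, and that of Ago4 was 15.6 ± 1.08% and 15.4 ± 1.07%, right retinas first. The makeup of the family thus differed between sides by less than its spread. Reads of similar sequence could have been shared among the Argonautes by the counting, whose rule is not given in the sources used here.

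**Figure D3:**
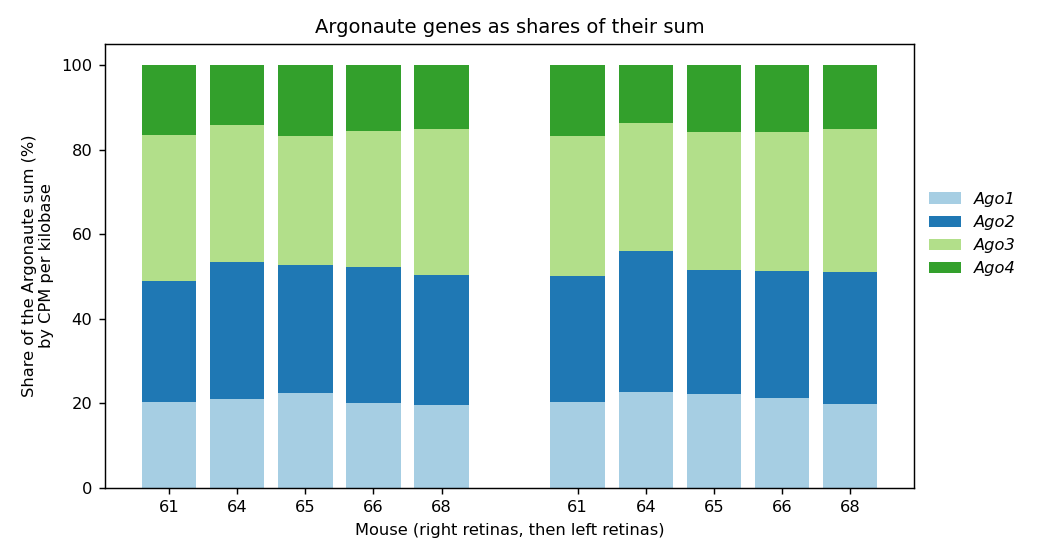
Share of each Argonaute gene in the sum of the 4 genes, by CPM per kilobase of exon union (y axis, percent), in 5 right and then 5 left retinas by mouse number. Ago2 and Ago3 hold 28.6% to 33.5% and 30.1% to 34.8%, Ago1 19.7% to 22.6% and Ago4 13.8% to 16.9%.

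Ago2 measured 48.9, 53.6, 52.8, 57.2 and 52.8 CPM in right retinas, against 50.6, 57.2, 46.9, 50.3 and 54.7 CPM in left retinas. The right retina had more Ago2 in mice 65 and 66, by 0.17 and 0.18, and less in mice 61, 64 and 68, at −0.05, −0.09 and −0.05, so that the mean difference of 0.03 (SE 0.05, 95% interval −0.08 to 0.14) joined mice that went both ways. The end of Chrac1, which measured 6.25 CPM, overlaps the last 1711 bases of Ago2 on the opposite strand. Ago3 measured 70.2, 63.5, 63.2, 67.5 and 69.9 CPM in right retinas, against 66.6, 60.6, 62.1, 64.96 and 69.98 CPM in left retinas. It was higher on the right in 4 mice, with mouse 68 at −0.001, and the difference was 0.04 (SE 0.03, 95% interval −0.03 to 0.11). Here the 2 eyes of a mouse went together: mouse 68 was high and mouse 64 low on both sides.

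Ago1 measured 20.01, 20.2, 22.8, 20.8 and 19.6 CPM in right retinas, against 20.01, 22.3, 20.6, 20.7 and 20.2 CPM in left retinas, with a difference of −0.01 (SE 0.05, 95% interval −0.11 to 0.10) whose sign turned to 0.01 when libraries were scaled to the same sum over listed genes. Ago4 measured 13.9, 11.6, 14.6, 13.7 and 12.9 CPM in right retinas, against 14.01, 11.6, 12.5, 13.1 and 13.0 CPM in left retinas, with a difference of 0.05 (SE 0.05, 95% interval −0.06 to 0.16). Ago4 was lowest in both retinas of mouse 64, and in mouse 65 its right retina exceeded its left by 0.21, the widest gap of the 5 pairs, without which the difference between sides was 0.006. The sum of the 4 Argonautes was 153.9 ± 3.71 CPM in right and 150.4 ± 5.69 CPM in left retinas.

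None of the 10 genes passed the test of right against left (limma with the mouse as a block, Benjamini-Hochberg over all 14210 genes, adjusted p = 0.9996 for each). The test called 0.00% of all genes, so nothing particular to these 10 can be read from that. At an unadjusted p under 0.05 it had 0 of the 10 genes, against 2.34% or 333 of all tested genes. Of the 10 differences 6 were above and 4 below 0, as were 7266 and 6944 of all tested genes. The median of the 10 was 0.02 log2 units, where all tested genes had 0.002. The sides overlapped for all 10 genes, while 0.289% of all tested genes had sides that did not overlap. All intervals lay within −0.19 to 0.21. Without mice 65 and 68, whose libraries held the most lens and muscle transcripts (a fit added after the values were seen), the 10 differences ran from −0.10 to 0.09 and none passed. Because the labels do not give the side of the lens, these intervals cannot be read as the size of a lens effect. As retinas were measured whole, fewer cells of a type and less RNA per cell could not be told apart.

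**Figure D4:**
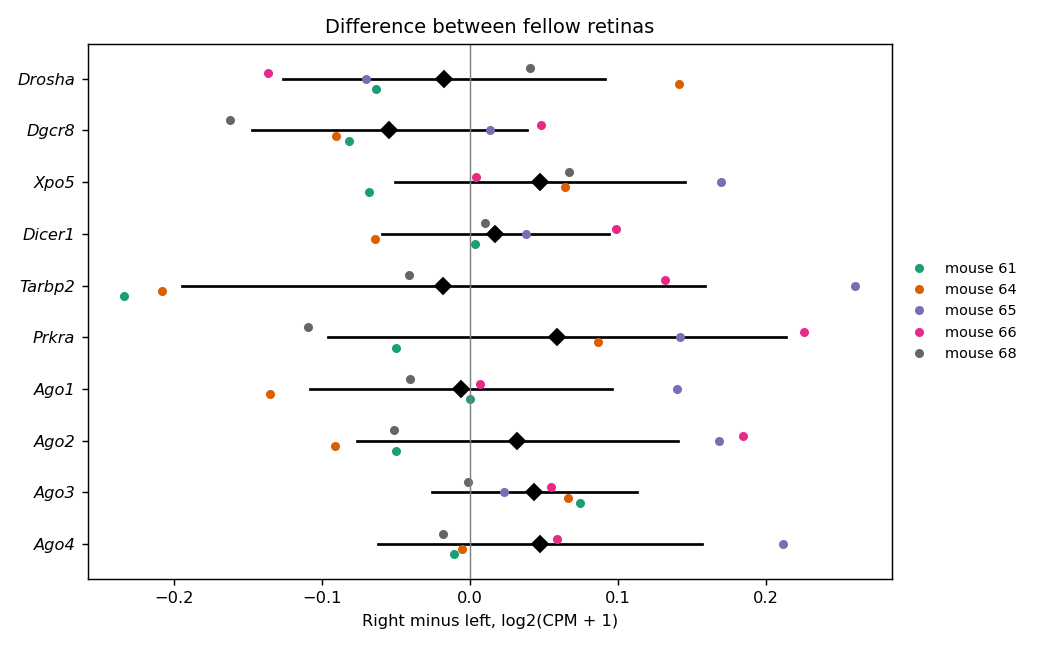
Right-minus-left difference on the log2(CPM + 1) scale (x axis) for each gene. Coloured points are the 5 mice, diamonds the mean and black lines the 95% interval from limma; every interval spans 0, and the points are narrowest for Ago3, at −0.001 to 0.07, and widest for Tarbp2, at −0.23 to 0.26.

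Whatever the side of the lens, it sat on 1 eye of each mouse, so the size of the fellow-eye difference was also described without its sign. The root mean square of the 5 differences was smallest for Ago3 at 0.0517 and Dicer1 at 0.0555 log2 units, and the 200 genes nearest to each in level had medians of 0.0811 and 0.0807. With libraries scaled by median-of-ratios size factors, an alternative added after the values were seen, Ago3 had 0.068 and Dicer1 0.0382. Ago2 had 0.123 where its neighbours in level had a median of 0.079, above 81.5% of them, but with these size factors it had 0.0893 against 0.0855, above 56.0%, and with libraries scaled to the same listed sum 0.0984 against 0.0856, above 64.5%. Tarbp2 had 0.192 against 0.138, above 79.0% of its neighbours, or 67.5% with either scaling. Drosha, Xpo5, Prkra, Ago1 and Ago4, at 0.0888 to 0.136, were above 36.5% to 47.5% of their own neighbours, and Dgcr8 at 0.0935 was above 51.0%. Without mouse 65, whose right retina had the highest summed level of lens markers, the value of Ago4 was 0.0313, against 0.0985 with all mice, and that of Xpo5 was 0.0575, against 0.0915. The part of lens tissue in these values was not tested. In all, 3 of the 10 genes differed between fellow eyes by more than the median of genes of like level, a number that was 5 without mouse 61. Since a median has equally many genes on either side, nothing particular to these 10 is read from these counts.

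Between mice none of the 10 genes passed either (limma's F-test over the mouse terms, Benjamini-Hochberg over all tested genes), where the test called 0.570% or 81 of all genes. At an unadjusted p under 0.05 the F-test had 2 of the 10, Ago3 and Tarbp2, and 13.8% or 1964 of all genes. For Ago3 the mouse took 87.0% of the sum of squares, with mouse means over a range of 0.17 log2 units (unadjusted p = 0.0229, adjusted p = 0.305 by limma). Scaled to the same listed sum or by median-of-ratios size factors, Ago3 had an unadjusted p of 0.0553 and 0.0786 by limma. Without mouse 68 it was 0.0844. Ago2 had an unadjusted p of 0.0408 and 0.0432 by limma under these scalings, against 0.240 without them. Which members had an unadjusted p under 0.05 thus depended on the scaling. For Tarbp2 the mouse took 72.7%, over a range of 0.46 (unadjusted p = 0.0368, adjusted p = 0.336 by limma), and that range rested on mouse 61. Without it the range was 0.13 and the adjusted p = 0.961 by limma. Of all tested genes 13.2% had both retinas of mouse 61 above the other 8, as Tarbp2 and Prkra did, and 5.06% had both retinas of mouse 64 below the other 8, as Ago4 did. Mouse 61 was highest on average for Dicer1, Tarbp2, Prkra and Ago4 and lowest for Drosha and Ago2. Dicer1 and Dgcr8 had ranges of mouse means of 0.06 and 0.08, the narrowest of the 10 over all mice, where genes of like level had medians of 0.14 and 0.17. Without mouse 64 the range of Xpo5 was narrower still, at 0.02 against 0.11 with all mice, and without mouse 66 that of Dicer1 was 0.03.

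The genes that work before and after this core were taken as 5 lists with 92 tested genes in all, of which 0 passed right against left and 0 passed between mice over all genes, and 2 and 10 had an unadjusted p under 0.05, where all tested genes had 2.34% and 13.8%. Of the 18 tested nuclear cofactors 13 were higher and 5 lower on the right, with a median difference of 0.02, and the lowest p was that of Srsf3, a splicing factor that also helps Microprocessor find its hairpins (64.5 ± 3.50 CPM in right and 61.04 ± 2.57 CPM in left retinas, difference 0.08, SE 0.03, higher on the right in 5 of 5 mice, as were 2.78% of all tested genes). Of 9 genes of precursor tailing and decay 2 were higher and 7 lower (median −0.02). Among them Lin28b, which with Lin28a blocks the maturation of let-7, had the lowest p between sides at 1.22 ± 0.0954 CPM in right and 1.34 ± 0.195 CPM in left retinas. Lin28a had the lowest p between mice of any gene on the 5 lists (unadjusted p = 0.00123, adjusted p = 0.13 by limma). It measured 3.37, 3.03, 2.11, 3.16 and 1.77 CPM in the right retinas of mice 61, 64, 65, 66 and 68, against 3.13, 3.33, 2.38, 3.08 and 2.13 CPM in their left retinas. Both eyes of mice 65 and 68 were thus below those of the other 3 mice, a range of 0.53 log2 units between mouse means. This split was described after the values were seen, and its share over all tested genes was not counted.

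Of the 15 tested loading and silencing cofactors 10 were higher and 5 lower on the right (median 0.02). Snd1, a nuclease of the silencing complex, had the lowest p between sides (20.2 ± 1.45 CPM in right and 21.8 ± 1.85 CPM in left retinas, difference −0.10, SE 0.05) and Tsn, a subunit of the nuclease that removes passenger strands, the lowest between mice (22.6 to 28.8 CPM, range 0.25). Of the 26 effectors of repression, the GW182 proteins and the deadenylation and decapping enzymes, 16 were higher and 10 lower (median 0.02). The deadenylase subunit gene Pan3 had the lowest p between sides there (56.2 ± 1.77 CPM in right and 54.0 ± 1.49 CPM in left retinas, difference 0.06, SE 0.03), and Tnrc6b, a GW182 gene at 255 to 307 CPM, the lowest between mice (range 0.20).

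Of 25 genes listed as hosts of microRNAs, 24 were tested, 11 higher and 13 lower on the right (median −0.01). A host's transcript includes the hairpin the machinery cuts. On this list the place of the microRNA was checked only for Trpm1 and Trpm3, so the others, Ptprn among them, are hosts by listing only. Highest of the long noncoding hosts on this list were Mir124-2hg and Mir124a-1hg. Mir124-2hg was at 443 ± 30.9 CPM in right and 445 ± 8.02 CPM in left retinas. Mir124a-1hg was at 385.4 ± 23.7 CPM in right and 387 ± 10.7 CPM in left retinas. Mirg, Mir99ahg, Mir17hg, Mir22hg and Mir9-3hg were far lower, with medians of 9.22, 7.71, 3.60, 1.72 and 0.599 CPM over the libraries. Trpm1, the cation channel of ON bipolar cells, and Trpm3, a related channel, host a pair of microRNAs, miR-211 and miR-204, that share a seed. Their mature strands are shown 5′ to 3′ with the seed, bases 2 to 8, in capitals (RefSeq, GRCm38.p6).
miR-204-5p: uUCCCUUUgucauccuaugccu
miR-211-5p: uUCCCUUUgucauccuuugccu
The strand of miR-204 lies at chr19:22750610-22750631 and that of miR-211 at chr7:64205831-64205852, both on the plus strand, as their hosts are. Trpm1 measured 134.2 ± 4.85 CPM in right and 135.5 ± 7.51 CPM in left retinas (difference −0.01, 95% interval −0.10 to 0.07), and Trpm3 121.7 ± 7.68 CPM in right and 114.1 ± 7.54 CPM in left retinas (difference 0.09, 95% interval −0.03 to 0.22). The lowest p between sides was that of Ptprn (14.7 ± 1.43 CPM in right and 15.9 ± 1.05 CPM in left retinas, difference −0.11, SE 0.05, lower on the right in 5 of 5 mice, as were 2.01% of all tested genes). Between mice it was that of Mirg, at 7.56 to 10.7 CPM. A host transcript's level is not that of its microRNA, which was not measured in these libraries.

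For 3 of the members the genes with the most similar profile over the 10 libraries were sought, each profile centred and divided by its own SD. Acox3, Gnpat and Casd1 were nearest to Dicer1, at root mean square distances of 0.28, 0.302 and 0.304 SD where the median gene was at 1.20. Tank, Ldlrad4 and Eif4g1 were nearest to Drosha, at 0.309, 0.313 and 0.315 (median 1.48), and Gramd1b and Sarm1 were among those nearest to Ago2, at 0.336 and 0.355 (median 1.32). These are the nearest of 14210 genes over only 10 libraries and are given as a description.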

How the data were processed

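The table holds CPM as deposited by the authors, not divided by length, with 0.0001 added to each value. The unit was read from the values: less that addition, 90.9% to 91.7% of low values per library were multiples of 1 step within a tolerance of 0.1, too few to recover reads, so no count model was run. The submitters' processing notes name STAR, Partek and the build GRCm38 (mm10). By that step 1 CPM stood for 89.2 to 113.4 counts, so the implied counts and counting errors given here are estimates. Counting errors cover counting only. No library was left out, although per the labels part of the reads of mouse 64, right side, were lost to file damage. In that library 1 CPM stood for 106.2 counts, within the range of the others.

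Values were tested as log2(CPM + 1) with limma 3.58.1 (R 4.3.3), two-sided, threshold 0.05, mean-variance trend, mouse as a block, and by an F-test over mice. This scale understates changes of low genes. Mouse numbers come from the titles and mark fellow eyes. Deviations of fellow eyes correlated across genes at 0.607 in mouse 61 and at 0.143 to 0.311 in the others. Eyes of different mice were not compared in this way, so these values do not test the pairing. Hairpins were folded with RNAfold 2.7.2. The members and lists were chosen with earlier results of these data known. Named were all members, list genes that passed or else had the lowest p of their list, and the 3 nearest profiles of Dicer1, Drosha and Ago2. An item that this rule would name is not reported here. Alternatives were the pseudocount, filter, scaling, block and each mouse left out.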

Additional observations from a re-analysis of the deposited data

Results flagged for a closer look

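In 30 sets of 5 values, namely each gene's right retinas, left retinas and right-minus-left differences, the gap between an end value and its neighbour was compared with Dixon's critical value, which chance passes in about 1 of 20 sets, and 3 sets passed. In Dgcr8 the left retina of mouse 66, at 25.9 CPM, lay below the other left retinas at 27.8 to 28.5 CPM (gap 0.745 of the range). In Dicer1 the right retina of mouse 64, at 61.8 CPM, lay below the other right retinas at 63.8 to 64.6 CPM (gap 0.739 of the range). This is the library whose raw files the labels describe as damaged, and the bearing of the damage on this value was not tested. In Ago1 the left retina of mouse 64, at 22.3 CPM, lay above the other left retinas at 20.01 to 20.7 CPM (gap 0.715 of the range).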

How the results depend on the processing

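The count of genes passing right against left was 0 in all 13 alternatives, with 172 to 856 genes at an unadjusted p under 0.05. No member passed in any of them (lowest adjusted p 0.985). Without the mouse as a replicate block the count was also 0, with 188 at an unadjusted p under 0.05, and no member's call changed. Between mice 81 genes passed. That count was 23 to 88 when a mouse was left out in turn, lowest without mouse 61 and 53 and 39 without mice 66 and 68, and 41 without mice 65 and 68, a choice made after seeing the data. No member passed (lowest adjusted p 0.206, Tarbp2 without mouse 65). The number of members above the fellow-eye median of like genes was 3 to 5 with a mouse left out, with 5 without mouse 61. It was 3 under both scalings, which were added for it after seeing the data. Leaving out a mouse turned the sign of the difference between sides for 5 members, which ranged over −0.0573 to 0.012 for Drosha, −0.0033 to 0.0374 for Dicer1, −0.0876 to 0.0357 for Tarbp2, −0.0423 to 0.0264 for Ago1 and −0.00604 to 0.0628 for Ago2. The other 5 kept their sign, over −0.0802 to −0.0277 for Dgcr8, 0.0167 to 0.0760 for Xpo5, 0.0173 to 0.101 for Prkra, 0.0356 to 0.0544 for Ago3 and 0.00603 to 0.0633 for Ago4, with Xpo5 and Ago4 lowest without mouse 65. Scaling to the same listed sum turned Ago1 to 0.00613. The cause was not tested. Scaling moved the median gene by at most 0.01 log2 units. Depth limits Prkra and Tarbp2 most, with counting errors of 5.51% and 4.11%.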
